A study of Mus musculus with 4 samples.

Results

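Steroid and thyroid hormone receptors and the estrogen-responsive gene Greb1 were examined in RNA labelled as from sorted gonadotropes, the source of the gonadotropins LH and FSH in the pituitary. The 8 genes were taken by symbol from a table of 54532 genes. They are Greb1, the estrogen receptor genes Esr1 and Esr2, the progesterone receptor gene Pgr, the glucocorticoid receptor gene Nr3c1, the mineralocorticoid receptor gene Nr3c2 and the thyroid hormone receptor genes Thra and Thrb. Greb1 was included because it was higher in the knockout in these same libraries, so every difference between genotypes in the 8 genes is given as a description with no test. The protocols and cell type label describe purified, sorted gonadotropes, whereas the design text and the source label name only the pituitary, so the cell make-up behind each level can be read only from the markers. The cells came from male mice of mixed strain aged 10 to 12 weeks. Of the 4 RNA libraries, 2 were from conditional Gata2 knockouts (cKO) and 2 from control mice. The gene's product, GATA2, is a transcription factor with zinc fingers, and the series title calls the knockout gonadotrope-specific. The sources used here do not give the driver of the deletion, the alleles of the controls or whether each library is a separate animal. Any p-value therefore measures the spread among these 4 libraries, possibly a technical one.

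Nuclear receptors bind a hormone inside the cell and act as transcription factors on DNA. Estrogen, progesterone and glucocorticoids from the gonads and adrenal feed back on gonadotropes, and the estrogen receptor ERα, coded by Esr1, is the main estrogen receptor of the pituitary. Greb1 (growth regulation by estrogen in breast cancer 1) was found as an estrogen-induced gene in human breast cancer cells, where its protein acts as a coactivator of ERα. Pgr is also induced by estrogen in reproductive tissues.

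The libraries held 15541553 and 18362182 estimated counts in cKO and 10646909 and 21135301 in controls. Gata2 stood at 221 and 214 CPM (counts relative to the library total, with TMM scaling between libraries) in the cKO libraries, against 537 and 526 CPM in the controls. Control replicate 1 had the fewest counts. It correlated less closely with control replicate 2 (r = 0.839 across genes, log2 CPM) than the cKO libraries did (0.870 and 0.884). The correlation between the cKO libraries was lower still, at 0.834. The 5 gonadotrope markers Lhb, Fshb, Cga, Gnrhr and Nr5a1 were found in all libraries. They summed to 6660 and 7934 CPM in cKO, against 15064 and 13606 CPM in controls. Lhb, Fshb and Cga made up most of each sum and were lower in both cKO libraries. Gnrhr was also lower, at 250 and 319 CPM in cKO and 326 and 477 CPM in controls. Nr5a1 overlapped between the groups, at 275 and 372 CPM in cKO and 277 and 397 CPM in controls. Markers of other pituitary cells were present too. The somatotrope markers summed to 2816 and 1014 CPM in cKO and 1801 and 3131 CPM in controls. Of these, Gh had 2149 and 385 CPM in cKO and 1124 and 2375 CPM in controls, and Kcnmb2 overlapped too. Dlk1 was lower in both cKO libraries, as was Ghrhr, with 0 and 1 counts against 95 and 80 in controls. The corticotrope and melanotrope markers summed to 6171 and 7284 CPM in cKO and 7313 and 10029.5 CPM in controls. In such sorted populations, fewer cells of a type and less RNA per cell cannot be told apart.

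Greb1 transcripts were several-fold more abundant in the cKO libraries, whereas those of the estrogen receptor gene Esr1 were slightly less abundant. Greb1 (ENSMUSG00000036523.16, mm10 chromosome 12, 16670615 to 16800886, minus strand) had 117 and 102 CPM in the cKO libraries, against 13.1 and 23.1 CPM in the controls. Both cKO libraries were high, and the groups did not overlap: the lower cKO value was 4.40 times the higher control value. The group means were 109 ± 10.7 CPM in cKO and 18.1 ± 7.10 CPM in controls (SD, n = 2 each), a ratio of 6.04. The log2 fold change (cKO minus control) was 2.58 (SE 0.33). Among the 12695 genes whose average log2 CPM was 2 or more, 43 had a larger positive log2 fold change than Greb1.

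The counts behind these values were 1818 and 1810 in cKO and 144 and 484 in controls. As CPM of the unscaled library total, the exact 95% binomial interval was 112 to 122 and 94.1 to 103 in the cKO libraries. It was 11.4 to 15.9 in control replicate 1 and 20.9 to 25.0 in control replicate 2. These intervals hold counting error alone, as reads that carry no molecular identifier can be copies of 1 molecule, and the controls differed from each other by more than this error. An antisense gene, Gm48140, shares 736 exonic bases with Greb1 and had 99 and 25 counts in cKO and 0 and 22 in controls. The sources used here do not say whether the counting used strand, so reads of the shared bases cannot be assigned to a strand, but Gm48140 was far below Greb1 in each library.

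Prl, the prolactin gene of lactotropes, is itself an estrogen target in the rodent pituitary. Lactotrope markers were higher in the same cKO libraries: the 5 markers Prl, Drd2, Edil3, Angpt1 and Gal summed to 1350 and 1367 CPM in cKO, against 358 and 630 CPM in controls. Angpt1 had no count in cKO replicate 1 or control replicate 1. Stem or folliculostellate cell markers (Sox2, Sox9, S100b and Cyp2f2) summed to 84.4 and 95.1 CPM in cKO, against 41.0 and 46.2 CPM in controls. Sox9 made up most of that sum, and S100b had no count in 3 of the 4 libraries. The thyrotrope markers Tshb, Trhr and Dio2 summed to 136 and 92.3 CPM in cKO, against 77.2 and 68.7 CPM in controls, with Dio2 the main part and Tshb lower in both cKO libraries. The part of these cell types in the Greb1 level was not tested. Mitochondrially encoded transcripts were higher in both cKO libraries as well. Their sums were 75778 and 90221 CPM in cKO and 51846 and 60980 CPM in controls, and their part in the Greb1 level was not tested.

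Greb1 has alternative first exons, and RefSeq lists 2 start sites for it on GRCm38.p6. The table's counts add all transcripts of the gene and cannot be split between the starts. The promoter windows of Greb1 and Pgr are shown. Pgr and Nr3c1 were the receptor genes also higher in both cKO libraries, and Nr3c1 was not looked up. Each window runs from 250 bases before to 50 bases after the start, 5′ to 3′ on the gene's strand. Capitals mark GGTCA, the core of estrogen and other nuclear receptor response elements, and the GATA motif (GATA preceded by A or T and followed by A or G), each sought on both strands.
Greb1 distal start, chr12:16800837-16801136, minus strand: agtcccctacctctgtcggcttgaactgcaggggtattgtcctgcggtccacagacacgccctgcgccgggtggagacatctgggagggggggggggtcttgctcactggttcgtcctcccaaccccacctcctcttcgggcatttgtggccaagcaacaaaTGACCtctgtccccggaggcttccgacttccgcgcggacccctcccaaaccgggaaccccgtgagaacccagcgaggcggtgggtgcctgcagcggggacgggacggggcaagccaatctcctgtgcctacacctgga
Greb1 internal start, chr12:16757190-16757489, minus strand: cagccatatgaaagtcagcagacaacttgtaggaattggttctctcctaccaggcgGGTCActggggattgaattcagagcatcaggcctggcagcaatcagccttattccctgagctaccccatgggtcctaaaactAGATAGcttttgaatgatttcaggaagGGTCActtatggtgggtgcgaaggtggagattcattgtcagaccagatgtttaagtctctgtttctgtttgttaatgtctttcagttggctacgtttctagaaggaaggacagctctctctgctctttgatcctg
Pgr, chr9:8899583-8899882, plus strand: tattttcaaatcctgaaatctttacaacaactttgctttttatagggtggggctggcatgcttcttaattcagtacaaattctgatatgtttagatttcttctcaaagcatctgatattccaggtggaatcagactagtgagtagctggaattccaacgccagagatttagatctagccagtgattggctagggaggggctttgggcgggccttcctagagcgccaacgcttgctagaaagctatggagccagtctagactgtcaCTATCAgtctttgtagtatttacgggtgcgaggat

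The distal Greb1 window held 1 GGTCA core, which began at -88 from the start, and no GATA motif. The internal window held 2 cores, at -194 and -85, and 1 GATA motif at -112. The Pgr window held no core and 1 GATA motif, at 15 bases after the start. Such matches are common: of 32851 RefSeq promoter windows of this length, 40.5% held the GGTCA core and 29.8% a GATA motif, and the 2 do not overlap in the windows shown. A full palindromic estrogen response element (GGTCA, any 3 bases, TGACC) was in none of the Greb1, Pgr, Esr1, Esr2, Nr3c2 and Thrb windows and in 0.0700% of all windows. No glucocorticoid and progesterone element (GNACA, any 3 bases, TGTNC, in 0.475% of all windows) and no thyroid hormone direct repeat (AGGTCA, any 4 bases, AGGTCA, in 0.0152%) was found in them either. Elements outside these windows were not searched.

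**Figure D1:**
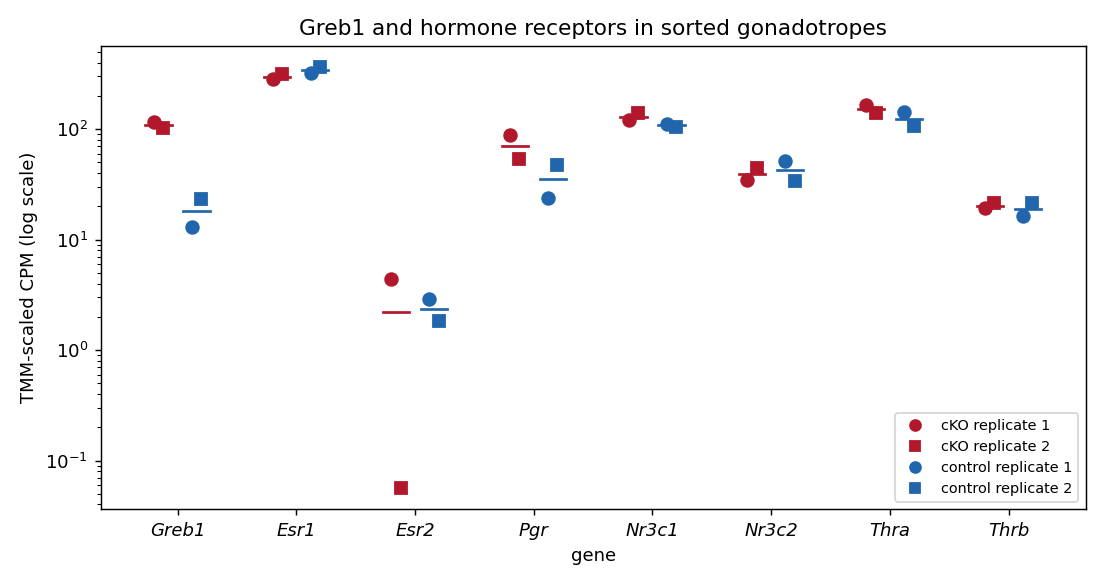
TMM-scaled CPM on a log axis for Greb1 and the 7 receptor genes, with cKO libraries in red left of controls in blue; circles are replicate 1, squares replicate 2 and short lines group means. Greb1 lies at 117 and 102 CPM in cKO, above 13.1 and 23.1 CPM in controls, while the groups lie close together for most receptors.

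The estrogen receptor gene Esr1 did not follow Greb1, whereas Esr2 had few counts and differed too much between the cKO libraries to tell. Esr1 (ENSMUSG00000019768.16, chromosome 10, 4611593 to 5005614) had 283 and 312 CPM in cKO, against 322 and 365 CPM in controls. Both cKO libraries were below both controls, by a small margin. Its log2 fold change was -0.21 (SE 0.15), and 19.3% of the 17349 genes tested had both cKO libraries below both controls. In 2 libraries the Esr1 count was not a whole number, so some reads had been counted as fractions. The sources used here do not give the rule for this.

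Esr2 (ENSMUSG00000021055.14, chromosome 12, 76120419 to 76177259), which codes for the second estrogen receptor, ERβ, was near the detection limit. It had 68 and 1 counts in cKO, against 32 and 38 in controls, or 4.37 and 0.0562 CPM against 2.91 and 1.82 CPM. The cKO libraries lay on either side of the controls, and the log2 fold change of -0.09 had an SE of 2.23. With such a spread between the cKO libraries, no difference of Esr2 between the genotypes was detectable. Per kilobase of exon, Esr1 exceeded Esr2 by a factor of 16 and 1368 in cKO and 27.2 and 49.5 in controls, the highest factor resting on a single count.

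Pgr was the receptor gene with the largest log2 fold change in size. It (ENSMUSG00000031870.16, chromosome 9, 8899833 to 8968611) had 87.7 and 53.6 CPM in cKO, against 23.6 and 47.0 CPM in controls. The cKO values were above both controls, but cKO replicate 2 was only 1.14 times control replicate 2. The controls themselves differed by a factor of 1.99. The log2 fold change was 1.0 (SE 0.40), and it was 0.58 without control replicate 1 and 1.58 without control replicate 2. Both cKO libraries above both controls was seen for 19.7% of all genes tested.

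The corticosteroid receptor genes were close in both genotypes. Nr3c1 (chromosome 18, 39410545 to 39519421) codes for the glucocorticoid receptor, through which adrenal glucocorticoids act in most cells. It had 120 and 140 CPM in cKO and 112 and 104 CPM in controls, with both cKO libraries marginally above the controls and a log2 fold change of 0.27 (SE 0.19). Nr3c2 (chromosome 8, 76899442 to 77245012) codes for the mineralocorticoid receptor, which binds aldosterone and also glucocorticoids. It had 34.5 and 44.6 CPM in cKO and 51.6 and 33.7 CPM in controls. These groups overlapped, with a log2 fold change of -0.11 (SE 0.33) that was 0.22 without control replicate 1. Per kilobase, Nr3c1 exceeded Nr3c2 by a factor of 2.94 and 2.64 in cKO and 1.83 and 2.61 in controls.

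Thyroid hormone receptor genes overlapped between genotypes as well. Thra (chromosome 11, 98740638 to 98769006) codes for TRα and, by alternative splicing, for a variant that does not bind hormone. It had 164 and 141 CPM in cKO and 143 and 106 CPM in controls. Control replicate 2 was the low library, the other 3 lay close together, and the log2 fold change was 0.29 (SE 0.21). Thra shares 263 exonic bases with the clock gene Nr1d1 on the opposite strand, so a part of its reads is uncertain. Nr1d1, which codes for the repressor REV-ERBα, was the more abundant of the pair, with 284 and 334 CPM in cKO and 262 and 217 CPM in controls. Thrb (chromosome 14, 17660261 to 18038090) codes for TRβ, whose pituitary form mediates feedback on thyrotropin in thyrotropes. It had 19.2 and 21.4 CPM in cKO and 16.5 and 21.6 CPM in controls, with a log2 fold change of 0.09 (SE 0.42).

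All 8 genes passed the filter on low counts. None of the 8 had an edgeR adjusted p under 0.05, as against 10 of the 17349 genes tested (0.0576%), and nothing is read from this, since the genotype difference was used to choose Greb1. The log2 fold change was above 0 in 5 of the 8 genes and in 52.4% of all genes. Of the 7 receptor genes, 2 had both cKO libraries above both controls, 1 had both below and 4 overlapped. In 6 of the 7, the log2 fold change was smaller than 0.31 in size.

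Levels of different genes can be set side by side only per length, for which CPM was divided by the kilobases of exon of each gene. In cKO the order was Thra at 32.9 ± 3.53, Esr1 at 21.8 ± 1.5, Nr3c1 at 16.9 ± 1.79 and Greb1 at 11.4 ± 1.12 CPM per kilobase (SD, n = 2). These 4 genes did not overlap with each other in range. Below them stood Pgr at 8.27 ± 2.82, Nr3c2 at 6.10 ± 1.10, Thrb at 2.74 ± 0.203 and Esr2 at 0.658 ± 0.906 CPM per kilobase. Pgr and Nr3c2 overlapped and were in opposite order in the 2 cKO libraries.

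Controls gave the same first genes but another place for Greb1. Thra stood at 27.0 ± 5.70 and Esr1 at 25.1 ± 2.24 CPM per kilobase and were not separated, since their order was reversed in control replicate 2. Nr3c1 followed at 14.1 ± 0.675, Nr3c2 at 6.58 ± 1.95 and Pgr at 4.13 ± 1.93 CPM per kilobase, the last pair overlapping. Thrb was at 2.57 ± 0.491, Greb1 at 1.89 ± 0.741 and Esr2 at 0.702 ± 0.230 CPM per kilobase, and the ranges of Pgr and Thrb and of Thrb and Greb1 overlapped. Greb1 thus held place 4 of 8 in both cKO libraries and place 7 in both controls. Among 17343 tested genes with a known length it ranked 4180 and 4778 in the cKO libraries and 12393 and 11347 in the controls. Esr1 ranked 2320 and 2120 in cKO and 1993 and 1651 in controls.

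**Figure D2:**
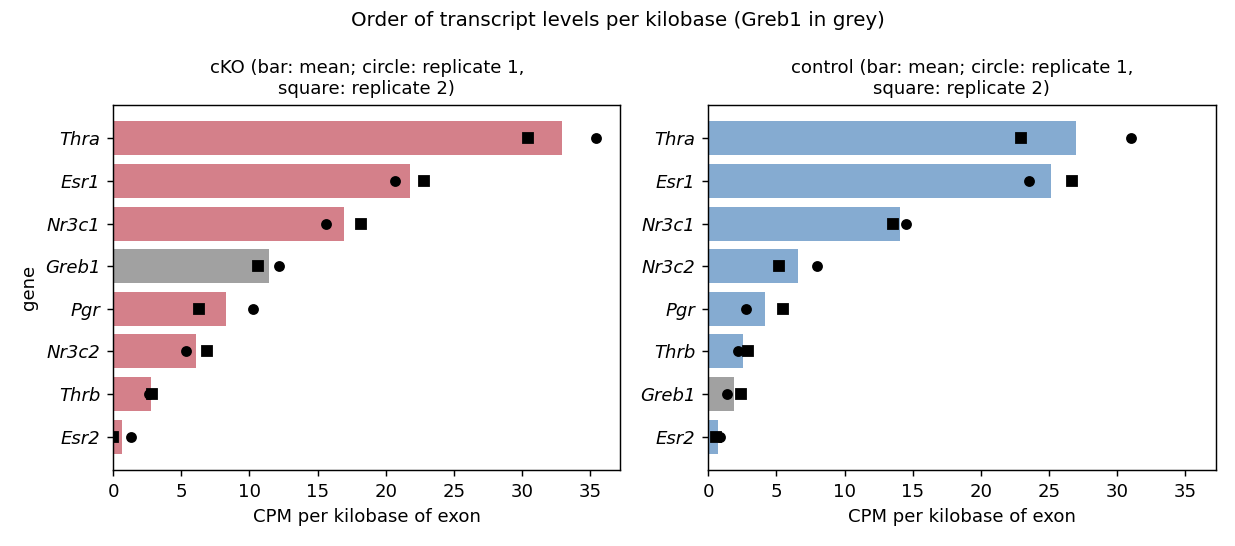
CPM per kilobase of exon for the 8 genes, ordered by group mean, in cKO (left) and controls (right); bars are means of 2 libraries and symbols the libraries. Greb1, in grey, stands at 11.4 in cKO and 1.89 in controls, while Thra, Esr1 and Nr3c1 lead in both groups.

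Nr5a1, which codes for the gonadotrope factor SF1 and is an orphan member of the nuclear receptor family, was above all 8 genes, with 64.8 and 87.7 CPM per kilobase in cKO and 65.4 and 93.7 in controls.

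Setting Greb1 against each receptor within a library removes the scaling between libraries. Greb1 amounted to 58.9% and 46.5% of Esr1 in the cKO libraries, against 5.81% and 9.04% in the controls, per kilobase. Relative to Pgr it was 119% and 169% in cKO, against 49.4% and 43.9% in controls. Relative to Thra it was 34.4% and 34.9% in cKO and 4.40% and 10.5% in controls. The cKO shares lay above the control shares for all 7 receptors. The lowest cKO share was 5.14 times the highest control share for Esr1, 2.41 times for Pgr and 2.10 times for Esr2, and between 3.28 and 4.45 times for the other receptors. Since Greb1 is in each of these ratios, they are not independent of each other or of the choice of Greb1.

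**Figure D3:**
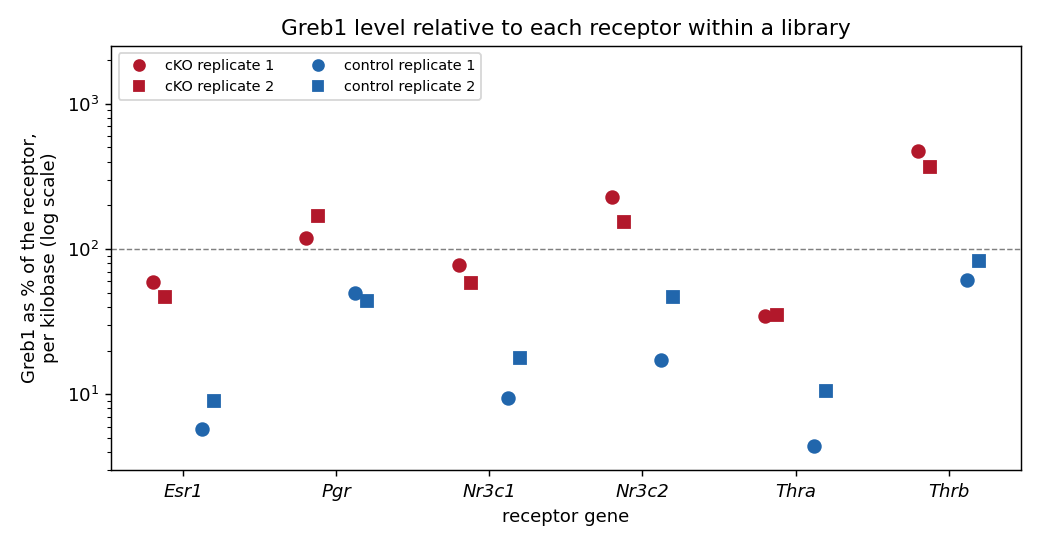
Greb1 as a percentage of each receptor gene per kilobase, on a log axis, in each library; cKO in red left of controls in blue, with a dashed line at 100%. Greb1 was 58.9% and 46.5% of Esr1 in cKO, against 5.81% and 9.04% in controls; Esr2 is not drawn because 1 library had a single count.

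The gene with the pattern most like Greb1 over the 4 libraries was Ret, a receptor tyrosine kinase for ligands of the GDNF family. Likeness was the distance between centred log2 CPM values, over 11604 other genes. Ret had 137 and 134 CPM in cKO, against 26.3 and 50.8 CPM in controls (distance 0.752). Rnd3, which codes for a small GTPase-like protein, had 79.9 and 56.0 CPM in cKO and 12.1 and 25.2 CPM in controls (0.758). Uap1l1 (0.786), the chemokine gene Ccl28 (0.791) and Dnah5 (0.792), which codes for an axonemal dynein, came next. The log2 fold changes of the 5 were 1.81 to 1.96, smaller than that of Greb1. Genes nearest to Esr1 differed as little as it did: Gprasp1, Prpf3, the chaperone gene Canx, Zfp324 and Tmem176a, at distances of 0.029 to 0.036, had log2 fold changes of -0.21 to -0.20.

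Of the listed genes known to respond to estrogen, which do not include Greb1, none passed the test. The 28 listed genes were chosen from general knowledge, largely from human breast cancer cells, with earlier results of these data known. The values below therefore describe the list and are no independent support. Of the 28 genes, 22 were tested. By edgeR's quasi-likelihood test 0 of them had an adjusted p under 0.05, and 7 had an unadjusted p under 0.05 (7.04% of all genes tested did). The median log2 fold change was 0.51, against 0.03 over all genes. The log2 fold change was above 0 in 15 of the 22, against 52.4% of all genes. In 10 of the 22 both cKO libraries were above both controls, where 19.7% of all genes were so placed, and in 3 both were below. Prl and Gal are on this list and on that of lactotrope markers.

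Ret was on this list too and had the smallest p, at a difference of 1.81 on that scale (SE 0.32) and an edgeR adjusted p of 0.248. Prl had 1249 and 1271 CPM in cKO, against 312 and 583 CPM in controls (1.49, SE 0.27, the same edgeR adjusted p). Both were called when any 1 library was left out, but those fits rest on 1 library in a group and call 66 to 681 genes in place of 10. Il6st, which codes for the signal-transducing receptor subunit gp130, had 720 and 616 CPM in cKO and 363 and 442 CPM in controls, a log2 fold change of 0.73 (SE 0.16). Slc7a5, for a neutral amino acid transporter that also carries thyroid hormone, had 0.71 (SE 0.20). Some well-known targets went the other way or were missing. Ccnd1, for cyclin D1, had 18.4 and 25.3 CPM in cKO and 37.2 and 27.9 CPM in controls, and Tff1 had no count in any library (both named after their values were seen).

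**Figure D4:**
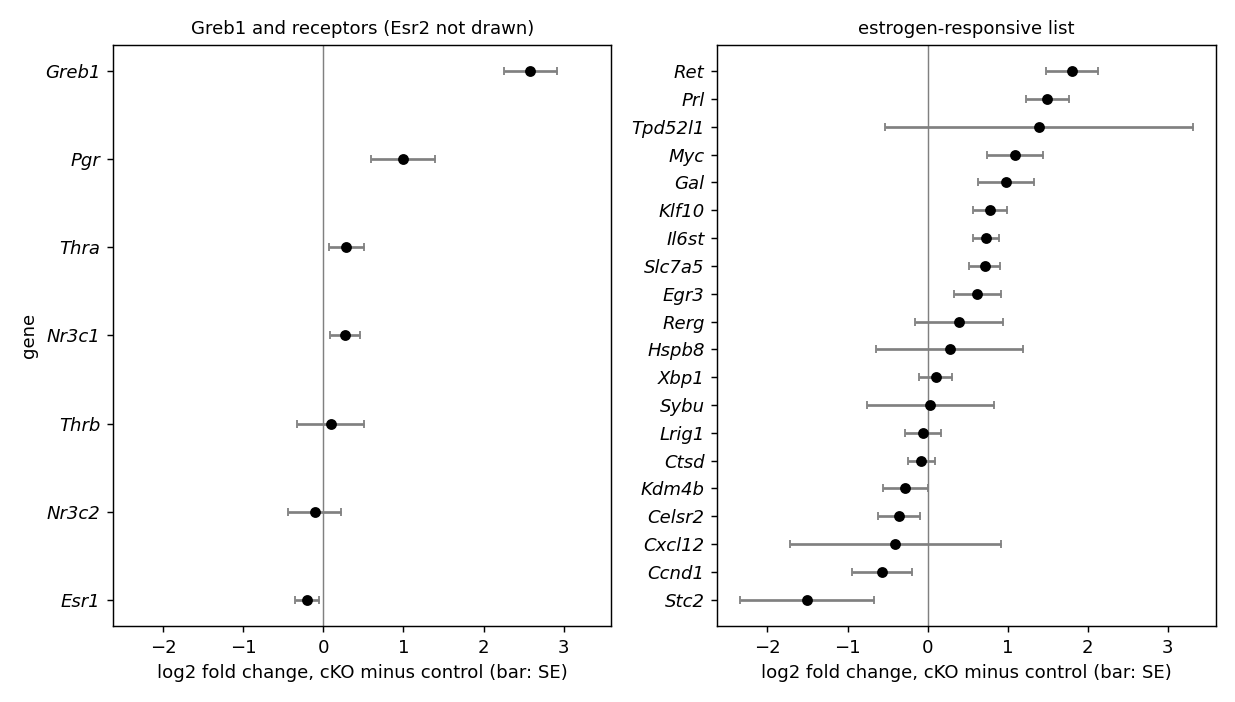
Log2 fold changes, cKO minus control, with their SE for Greb1 and 6 receptors (left) and for the 20 estrogen-responsive genes whose average log2 CPM was 2 or more (right). Greb1 lies at 2.58, Pgr at 1.0 and Esr1 at -0.21, and Ret and Prl lead the list on the right.

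Receptor partners showed smaller differences. Of 25 coregulators 24 were tested and 0 passed (1 at an unadjusted p under 0.05), with a median log2 fold change of 0.06. Nrip1, a corepressor that is itself induced by estrogen, had 236 and 198 CPM in cKO and 159 and 166 CPM in controls (log2 fold change 0.41, SE 0.17, edgeR adjusted p = 0.694). The scaffold factor gene Safb had 0.35 (SE 0.15), the acetyltransferase gene Ep300 -0.47 (SE 0.21) and the deacetylase gene Hdac3 0.39 (SE 0.20). All 11 chaperone genes were tested, 0 passed (1 at an unadjusted p under 0.05), and the median was -0.11. Among these Hspa8 had 0.29 (SE 0.09), Ppid 0.61 (SE 0.39), Hsp90aa1 -0.16 (SE 0.12) and Ppp5c 0.29 (SE 0.23).

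Among the 42 other nuclear receptor genes, 33 were tested and 0 passed, with 1 at an unadjusted p under 0.05 and a median of 0.11. That gene was Vdr, for the vitamin D receptor, which had 17.0 and 11.5 CPM in cKO and 3.09 and 2.72 CPM in controls (log2 fold change 2.29, SE 0.75, edgeR adjusted p = 0.642). Nr1d1 had 0.37 (SE 0.17) and Esrrg, for an estrogen-related receptor that does not bind estrogen, 1.03 (SE 0.49).

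Among genes known to respond to glucocorticoids, 21 of 23 listed were tested and 0 passed (4 at an unadjusted p under 0.05), with a median of 0.12. The log2 fold change was above 0 in 15 of the 21, against 52.4% of all genes. Fkbp5, a classic glucocorticoid target that codes for a co-chaperone of the receptor, had 137 and 103 CPM in cKO and 181 and 189 CPM in controls (log2 fold change -0.62, SE 0.20, edgeR adjusted p = 0.629). Zbtb16 had -1.49 (SE 0.50), whereas Nfkbia had 0.60 (SE 0.16) and Errfi1 0.44 (SE 0.16). In 5 of the 21 both cKO libraries were above both controls and in 4 both were below.

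Thyroid hormone handling and response genes gave 0 calls among 12 tested of 15 (2 at an unadjusted p under 0.05), with a median of 0.12. Klf9, induced by thyroid hormone and glucocorticoids, had 222 and 182 CPM in cKO and 99.9 and 133 CPM in controls (log2 fold change 0.79, SE 0.21, edgeR adjusted p = 0.529). Dio2, for the deiodinase that activates thyroxine, had 116 and 82.7 CPM in cKO and 54.9 and 52.6 CPM in controls (0.88, SE 0.25). Tshb had -1.32 (SE 0.57) and the corepressor gene Hr -0.48 (SE 0.31). Dio2 and Tshb are also thyrotrope markers. In steroid metabolism 11 of 19 genes were tested and 0 passed (1 at an unadjusted p under 0.05), with a median of -0.07. Hsd17b10 had 1.44 (SE 0.60), Star -1.71 (SE 0.79), Srd5a3 -1.28 (SE 0.78) and Hsd17b12 0.36 (SE 0.22).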

How the data were processed

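The authors deposited estimated counts per gene, not scaled between libraries. The submitters' processing notes name mm10, featureCounts (1.5.0-p1) and STAR (2.5.1b). Of the deposited values 4.5% were not whole. The sources used here do not give the annotation release, the strand setting or how multi-mapping reads were counted. Identifiers were matched to GENCODE M21, without their version (54495 of 54532), and exon lengths are unions over all transcripts of a gene. Counts were rounded, filtered with filterByExpr (minimum count 10, minimum total 15), and then scaled by TMM, with 17349 genes remaining. The test was edgeR 4.0.16's two-sided quasi-likelihood F-test (R 4.3.3), group as the only term, with Benjamini-Hochberg adjustment over all genes and a threshold of 0.05. The SE is the log2 fold change divided by the square root of F. The script was tested on simulated data.

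The members and gene lists were chosen with earlier results of these data known. Named genes were the 8 members, Greb1l, Gata2, genes overlapping a member, up to 4 tested genes of each list with the smallest p, and the 5 genes nearest to Greb1 and to Esr1 in centred log2 CPM (0.5 CPM added, average log2 CPM 2 or more, symbols of Gm and a number, Rik and -ps passed over). Some genes that this rule names are not reported here. Alternatives were other scaling factors, filters, DESeq2 1.42.0, limma-voom (limma 3.58.1), edgeR's newer quasi-likelihood method, the replicate number as a block, each library left out and longest-transcript lengths. Promoter sequences are from RefSeq (GRCm38.p6) and matched 6 of the 7 members looked up, Greb1, Esr1, Esr2, Pgr, Nr3c2 and Thrb. Thra had no entry, and Nr3c1 was not looked up.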

Additional observations from a re-analysis of the deposited data

How the results depend on the processing

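Greb1 kept its direction under all 13 alternatives, with log2 fold changes of 2.23 (without control replicate 1) to 3.06 (without control replicate 2). Esr1, Pgr, Nr3c1 and Thra kept theirs as well. Esr2 changed sign in 2 alternatives (range -5.22 to 0.88), Nr3c2 in 3 (-0.38 to 0.22) and Thrb without control replicate 1 (-0.10), while Thrb was at 0.00 without cKO replicate 2. Values beyond the replicate spread were Esr2 with limma-voom (-1.97) and the block (-1.97), and, with a library left out, Greb1 (3.06), Esr2 (-5.22), Nr3c1 (0.14) and Thrb (0.31). Without control replicate 2 the median over all genes was 0.25, so values there shift upward together. In place of 10 genes called there were 943 by DESeq2, 256 by limma-voom, 253 unfiltered, 47 by the newer edgeR method and 3 when 1 CPM in 2 libraries was required. Leaving out single libraries gave 66 (control replicate 1) to 681 (control replicate 2) calls, on the assumption that the lone remaining library varies like the other group. For all of these the cause was not tested.

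Where 0 estrogen-responsive genes were called, there were 4 without a filter, 7 with DESeq2, 3 with limma-voom, 2 with the newer edgeR method and 2 to 4 with 1 library left out, all higher in cKO. DESeq2 called 1 other nuclear receptor, 1 coregulator, 1 chaperone, 4 glucocorticoid-responsive and 2 thyroid hormone genes. Limma-voom called 1 chaperone, 1 glucocorticoid-responsive and 2 thyroid hormone genes, and the fit without a filter 1 thyroid hormone gene. With 1 library left out there were 0 to 1 coregulators, 0 to 3 glucocorticoid-responsive, 0 to 1 thyroid hormone and 0 to 1 steroid metabolism genes. Longest-transcript lengths in place of exon unions exchanged Pgr and Nr3c2 in the order over all 4 libraries, which changed 2 places, and put Esr1 before Thra in controls.

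Same-numbered libraries did not deviate together (r = -3.47e-05 over genes), so the replicate numbers gave no pairing. With the replicate block there were 7 called genes, a Greb1 value of 2.64 and 0 calls in each list.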

Other observations

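The paralogue Greb1l did not share the pattern of Greb1. It had 53.1 and 69.5 CPM in cKO, against 58.5 and 84.2 CPM in controls, with overlapping groups and a log2 fold change of -0.22 (SE 0.28). Per kilobase of exon it stood at 4.81 and 6.31 CPM in cKO and 5.30 and 7.64 CPM in controls, so Greb1 was above Greb1l in both cKO libraries and below it in both controls.

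Greb1, Pgr, Prl and Ret, all high in cKO, also differed between the controls. On the log2 scale with 0.5 CPM added, control replicate 2 exceeded control replicate 1 by 0.80 for Greb1, 0.98 for Pgr, 0.90 for Prl and 0.94 for Ret, where the median over 12695 genes was 0.08. These differences were larger than those of 83.7%, 86.9%, 85.6% and 86.3% of the genes in the same order. Between the cKO libraries, replicate 1 exceeded replicate 2 by 0.20 for Greb1 and 0.70 for Pgr, and Prl (-0.03) and Ret (0.03) were level. The genes were picked after their values were seen.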
